A study of Mus musculus with 9 samples.

Results

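The genes described here encode the complement system and the collectins: plasma proteins, their membrane regulators and their receptors. Of 32 listed genes, 30 were measured on a probe set with 1 gene symbol, among 19938 genes on the array, and the other 2 (C3 and Cfd) were not analysed here. The 30 genes were grouped by the cell that is generally known as their main source in mouse liver, as 16 hepatocyte genes, 8 macrophage or myeloid genes, 2 stellate cell genes and 4 genes of other or broad expression. RNA came from 5 hepatocellular carcinomas (HCC) and 4 control livers, with 1 array per sample. The HCC samples came from bitransgenic AFP-Cre/Rosa26-lsl-NICD mice: the alpha-fetoprotein promoter drives Cre, which removes a stop cassette and switches on the intracellular domain of Notch1 (NICD). The control livers came from monotransgenic Rosa26-lsl-NICD mice, which carry the same allele without Cre. The labels give a hybrid 129 x C57BL/6 background and an age of 6 to 12 months for all mice. They do not state sex or say whether each array is a separate animal, so p-values measure the spread between these samples. The alpha-fetoprotein promoter is active in fetal hepatic cells, so recombination can mark both the hepatocyte and the bile duct lineage, and a tumour sample holds other cells besides hepatocytes.

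Complement is a cascade of plasma proteases and binding proteins, most of them made by hepatocytes, that marks microbes and damaged cells for uptake and can punch pores in membranes. It starts from recognition proteins. C1q, made by macrophages, binds antibody, while mannose-binding lectins, ficolins and collectins bind sugars and act through the MASP proteases. Collectins join a collagen-like tail to a sugar-binding head. Downstream, the terminal components assemble into the membrane attack complex, and regulators such as Cd55 and Cd59a keep it off host cells.

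All values below are log2 intensities after RMA, a background correction and normalisation of the arrays that the submitters applied, and the log2 change is HCC minus control liver. A gene was called changed at an adjusted p below 0.05 in limma, with Benjamini-Hochberg adjustment over all 19938 genes. Array medians lay between 91.5 and 101 linear units. Hepatocyte markers were at high intensity in every sample, with albumin (Alb) at 13.02 to 13.56 on HCC arrays and 13.47 to 13.66 on control arrays. Every sample therefore held hepatocyte RNA, which does not tell HCC from control liver. Xist, an RNA of the inactive X chromosome, fell into separate levels: HCC arrays 1 and 2 had 11.14 and 11.13 and HCC arrays 3 to 5 had 4.98, 5.10 and 4.92, against 11.76, 10.68, 10.85 and 4.83 in the 4 controls. The mix of Xist levels therefore differed between the groups. Differences within each level are given below for Colec10, Mbl2, Mbl1, the C1q chains and C3ar1 only.

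Colec10 was the only member called changed, and it was lower in HCC. No member rose past the threshold and 1 of 30 fell, which is 3.33% of the members, against 0.858% of all genes called higher and 0.16% called lower. At an unadjusted p below 0.05, 1 member was higher and 7 were lower, against 10.5% and 9.85% of all genes. Of the 30 members, 25 had a negative change, or 83.3%, compared with 57.5% of all genes, and the median change was -0.38 against -0.03 over all genes. Negative changes made up 81.8% of hepatocyte, 77.8% of macrophage, 72.7% of stellate and 66.7% of sinusoidal endothelial markers. The 4 genes whose HCC values all lay below every control value were Colec10, Mbl2, Masp2 and C8g. They make up 13.3% of the members, where 3.86% of all genes were separated in this direction, and no member lay wholly above the controls (5.63% of all genes). The share lying wholly below was 18.2% of hepatocyte, 11.1% of macrophage, 9.09% of stellate and 33.3% of sinusoidal endothelial markers, so it was not particular to the members.

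**Figure D1:**
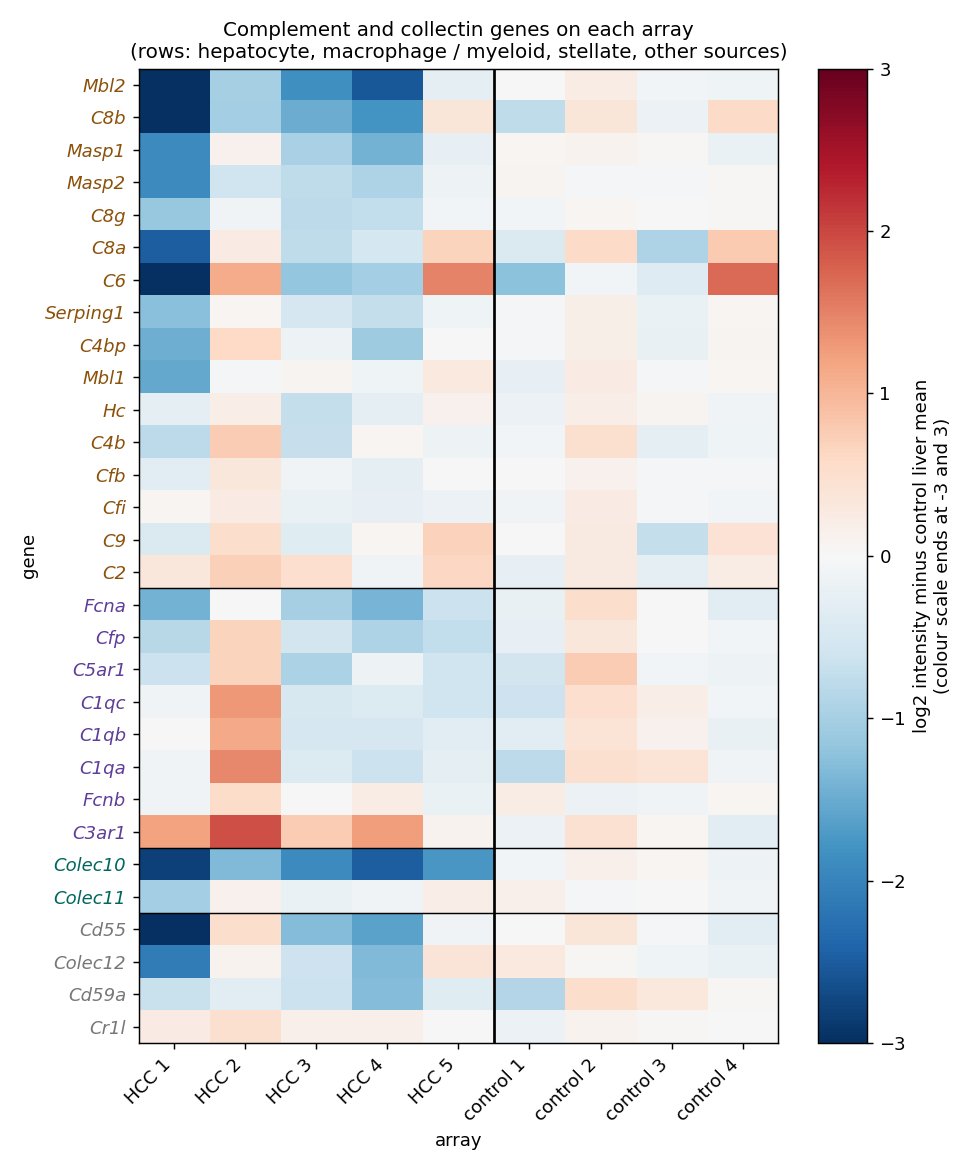
Log2 intensity of each of the 30 genes on each array minus that gene's mean over the 4 control livers (colour; red above, blue below), with HCC arrays left of the line and control arrays right of it, and rows ordered by main source and change. Colec10 is blue on all 5 HCC arrays, and HCC array 1 holds the lowest HCC value of 18 genes.

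The promoters of the mannose-binding lectin genes are shown because these related genes differed in their values, as described below. The sequences are the 250 bases before the transcription start, from the RefSeq table of the GRCm38.p6 build, at chr19:30232678-30232927 (plus strand) for Mbl2 and at chr14:41151206-41151455 (plus strand) for Mbl1. Capitals mark the longest run of bases that both windows share, 13 bases long.
Mbl2: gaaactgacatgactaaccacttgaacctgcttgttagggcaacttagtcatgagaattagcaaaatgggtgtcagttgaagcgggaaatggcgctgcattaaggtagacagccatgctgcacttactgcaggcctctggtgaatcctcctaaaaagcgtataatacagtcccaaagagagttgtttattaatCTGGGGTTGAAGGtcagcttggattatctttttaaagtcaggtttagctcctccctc
Mbl1: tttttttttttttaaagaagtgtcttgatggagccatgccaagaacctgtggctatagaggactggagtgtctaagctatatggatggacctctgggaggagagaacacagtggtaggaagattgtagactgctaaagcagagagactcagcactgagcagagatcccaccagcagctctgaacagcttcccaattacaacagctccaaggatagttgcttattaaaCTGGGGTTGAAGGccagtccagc
The shared run ended 44 bases before the start site of Mbl2 and 10 bases before that of Mbl1. It was found, on either strand, in 3 of 32851 promoters in the table. The promoters of Mbl2 and Mbl1 are among these by construction, because the run was taken from them. The letters TGGGAA, the core motif of the Notch partner Rbpj, were searched on both strands of the 300-base promoters. They occurred in 7 of 24 promoters of 23 matched members (29.2%) and in 25.6% of all promoters in the table. Mbl1 held the motif 63 bases before its start, and the Mbl2 window held none.

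Among the recognition proteins, the liver collectin Colec10, a sugar-binding lectin, had the lowest p of all members. It measured 6.33, 7.80, 7.21, 6.67 and 7.38 on HCC arrays 1 to 5, against 9.06, 9.29, 9.20 and 8.98 on control arrays 1 to 4. Every HCC value lay more than 1 log2 unit below the lowest control value. The means were 7.08 ± 0.59 in HCC (SD, n = 5) and 9.13 ± 0.14 in control liver (SD, n = 4), a 4.15-fold fall (log2 change -2.05, SE 0.27, 95% interval -2.66 to -1.45, limma adjusted p = 0.0194). Among arrays with high Xist the difference was -2.12 (2 HCC and 3 control arrays) and among arrays with low Xist it was -1.90 (3 HCC arrays and 1 control array). The change stayed between -2.24 and -1.87 under all 17 alternatives, of which 12 kept the call. The call was lost without HCC array 4 (adjusted p = 0.0541) and without control array 1, 2, 3 or 4 (adjusted p = 0.0856, 0.0767, 0.0923 and 0.0527). Without control array 1, 2 or 3 no gene on the array was called lower. With the replicate number as a block, Colec10, Mbl2, C8b and Fcna were called lower and C3ar1 higher, in a fit that called 1.1% of all genes lower and 1.3% higher.

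Colec11, the collectin that pairs with Colec10 in plasma, did not pass. It measured 7.42, 8.55, 8.23, 8.31 and 8.63 on HCC arrays 1 to 5 and 8.57, 8.37, 8.45 and 8.32 on control arrays 1 to 4. The groups overlapped, since HCC arrays 2 and 5 were within or above the control range (log2 change -0.20, 95% interval -0.70 to 0.30, adjusted p = 0.639). The fall of Colec10 was larger than the change of Colec11 when the difference between the genes was taken within each array. That difference was -1.15 ± 0.33 in HCC and 0.71 ± 0.18 in control liver (SD, n = 5 and 4), a change of -1.85 (95% interval -2.30 to -1.41, exact permutation p = 0.00794, the smallest that 5 against 4 arrays can give). Adjusted over the 9 pairs of related members compared, p was 0.0357. Every pair that passed had this same adjusted p, which was set by the largest permutation p among them, 0.0238. Even at the smallest possible p, a pair could not have passed without the others. The pairs were chosen with earlier results known, the fall of Colec10 among them, so their p-values describe these data and are not separate support.

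Other stellate cell markers did not pass in HCC. Of 11 measured, 8 had a negative change and none was called, with 3 lower at an unadjusted p below 0.05 in limma. Their summed linear intensity ranged from 2616 to 7032 on HCC arrays and from 5330 to 6909 on control arrays. Such a sum mainly follows the brightest probe sets, and here Dcn had the highest mean in both groups. The most negative changes were those of Lrat, the retinol-esterifying enzyme of stellate cells, and the matrix protein Ecm1. Lrat measured 7.91 ± 1.04 in HCC and 9.09 ± 0.28 in control liver (limma adjusted p = 0.210). Ecm1 measured 8.27 ± 0.62 and 9.76 ± 0.38 in the same order (limma adjusted p = 0.0624). The 3 markers with a positive change were Rgs5 (0.55), Pdgfrb (0.19) and Pdgfra (0.18). The part of stellate cell number in the fall of Colec10 was not tested. In bulk RNA such as this, fewer cells of a type and less RNA per cell cannot be told apart.

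Mbl2, a mannose-binding lectin made by hepatocytes, had HCC values that all lay below the controls without passing the test. It measured 8.47, 10.82, 9.98, 9.27 and 11.52 on HCC arrays 1 to 5, against 11.81, 12.04, 11.73 and 11.68 on control arrays 1 to 4. HCC array 5 came closest to the controls, and HCC array 1 was the lowest. The log2 change was -1.81 (SE 0.54, 95% interval -3.02 to -0.59, adjusted p = 0.124). Without HCC array 5 it was -2.18 and passed (adjusted p = 0.0297), in a fit that called 2.79% of all genes lower. The differences within the Xist levels were -2.22 (high) and -1.43 (low).

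Its relative Mbl1, the other mannose-binding lectin of the mouse, did not follow it. Mbl1 measured 9.53, 11.04, 11.15, 10.93 and 11.35 on HCC arrays 1 to 5 and 10.81, 11.32, 10.99 and 11.13 on control arrays 1 to 4. All HCC arrays except array 1 lay within or just above the control range (log2 change -0.26, limma adjusted p = 0.689). For Mbl1 the differences within the Xist levels were -0.76 (high, which holds HCC array 1) and 0.02 (low). Within arrays, Mbl2 minus Mbl1 was -0.79 ± 0.74 in HCC and 0.76 ± 0.19 in control liver, a change of -1.54 (95% interval -2.46 to -0.63, exact permutation p = 0.0159, adjusted p = 0.0357 over 9 pairs). The groups did not overlap in this difference.

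**Figure D2:**
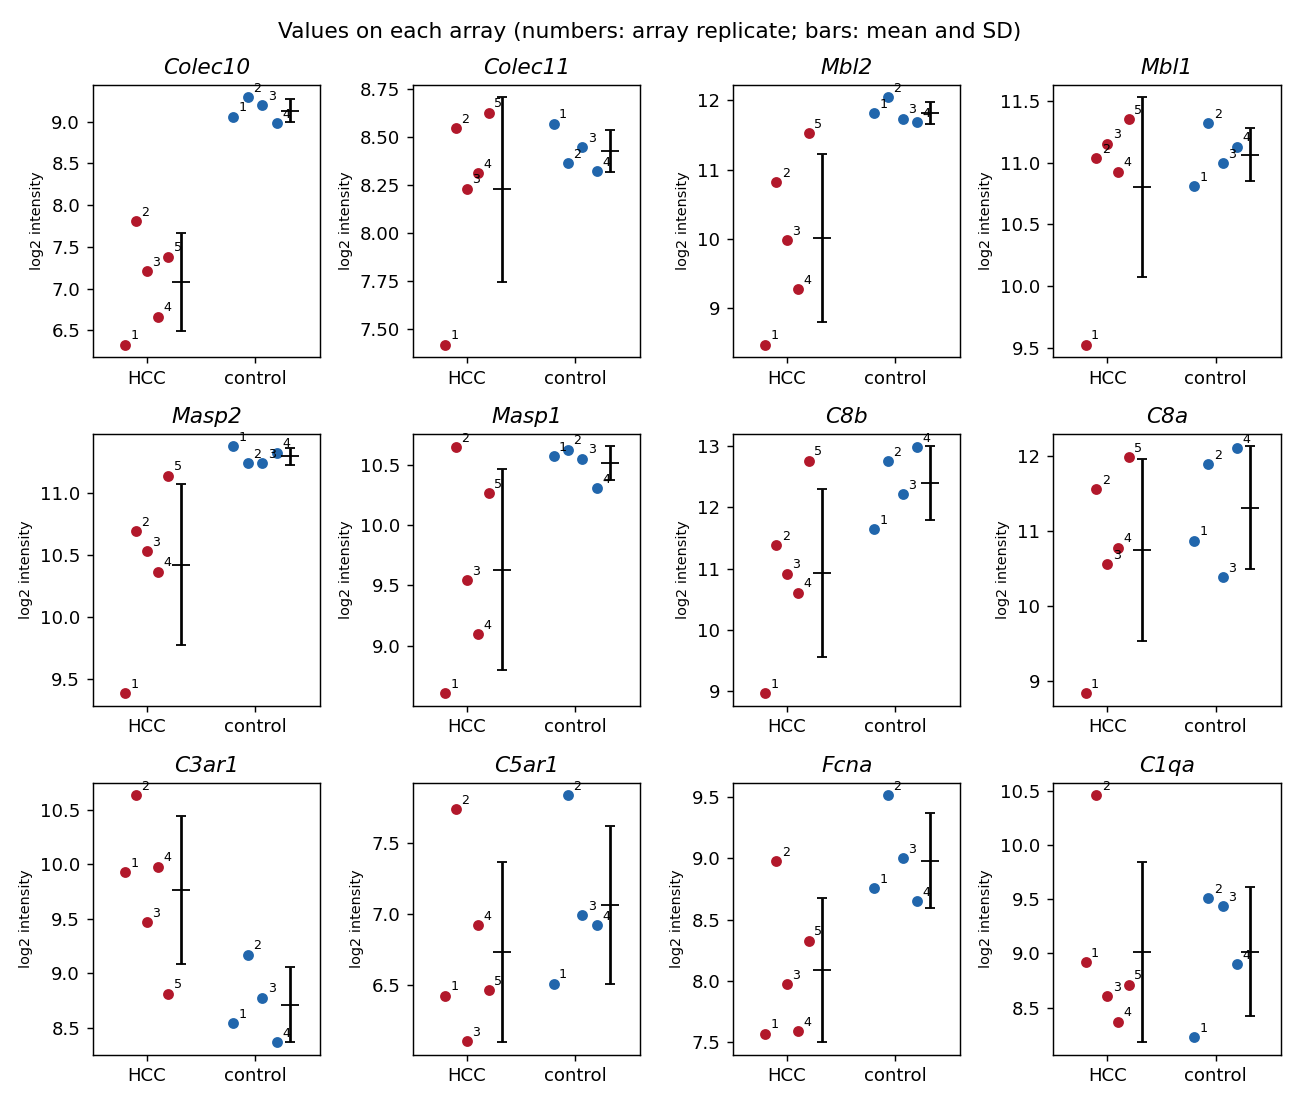
Log2 intensity of 12 members on each of the 5 HCC arrays (red, left) and 4 control arrays (blue, right), with the replicate number beside each point and the mean and SD as a black bar; each panel has its own axis. HCC values of Colec10, Mbl2 and Masp2 lie below all their controls, and those of Colec11, Mbl1 and C5ar1 overlap them.

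The remaining recognition proteins were C1q, the ficolins and Colec12, and none of them passed. The C1q chains, encoded by C1qa, C1qc and C1qb next to each other, had changes of -0.00, -0.07 and -0.04 (adjusted p = 0.942 to 0.998). C1qa measured 8.92, 10.46, 8.60, 8.37 and 8.71 on HCC arrays 1 to 5 and 8.22, 9.51, 9.43 and 8.90 on control arrays 1 to 4. HCC array 2 was the highest of all arrays for each chain, and for C1qa the other HCC arrays lay inside the control range. Within the Xist levels the differences had opposite signs. Among high-Xist arrays, HCC array 2 among them, they were 0.63, 0.49 and 0.56 for C1qa, C1qb and C1qc. Among low-Xist arrays, with 1 control array, they were -0.34, -0.23 and -0.41 in the same order. Fcna, the ficolin of Kupffer cells and other macrophages, measured 7.57, 8.97, 7.97, 7.59 and 8.33 in HCC, against 8.75, 9.51, 9.0 and 8.65 in control liver. Only HCC array 2 reached the control range (log2 change -0.89, SE 0.30, adjusted p = 0.158).

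Fcna minus C1qa differed between the groups within arrays, with -0.93 ± 0.47 in HCC and -0.04 ± 0.42 in control liver (change -0.89, exact permutation p = 0.0238, adjusted p = 0.0357 over 9 pairs). The groups overlapped in this difference. Fcnb, the ficolin of granulocytes and monocytes, changed by 0.09 (adjusted p = 0.782). Colec12, a membrane scavenger collectin, measured 6.72, 8.93, 8.21, 7.51 and 9.21 in HCC and 9.11, 8.86, 8.69 and 8.63 in control liver (log2 change -0.71, adjusted p = 0.411). HCC arrays 2 and 5 were in or above the control range and HCC array 1 was far below it, and without array 1 the change was -0.36.

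The MASP proteases cleave the next components after a lectin has bound its sugar, and their genes had like changes. Masp2, which cleaves complement components 4 and 2, measured 9.38, 10.69, 10.53, 10.36 and 11.14 on HCC arrays 1 to 5, against 11.38, 11.24, 11.24 and 11.33 on control arrays 1 to 4. All HCC values lay below all control values, although the call was missed (log2 change -0.88, SE 0.29, 95% interval -1.54 to -0.22, adjusted p = 0.153). Masp1, its partner protease, measured 8.60, 10.65, 9.54, 9.09 and 10.27 in HCC and 10.57, 10.62, 10.55 and 10.31 in control liver. It had a log2 change of -0.88 as well (SE 0.38, adjusted p = 0.232), but HCC array 2 lay above the highest control. The change of Masp2 minus Masp1 was 0.01 (95% interval -0.57 to 0.58, exact permutation p = 0.984), so changes of any size within that interval remain possible.

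C2 and Cfb, neighbouring genes for the proteases of the classical and alternative convertases, did not change past the threshold. C2 measured 8.40, 8.78, 8.55, 7.95 and 8.67 in HCC and 7.81, 8.33, 7.80 and 8.29 in control liver (log2 change 0.41, adjusted p = 0.257). It was the hepatocyte gene with the largest positive change. Cfb changed by -0.08 (95% interval -0.38 to 0.23, adjusted p = 0.775). Their difference within arrays was -3.83 ± 0.20 in HCC and -4.32 ± 0.25 in control liver (change 0.49, exact permutation p = 0.0238, adjusted p = 0.0357 over 9 pairs). After repeated quantile normalisation it no longer passed (change 0.31, adjusted p = 0.0952). C4b, the source of complement component 4, changed by -0.16 (adjusted p = 0.800), and its probe set may share signal with the near copy C4a.

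The terminal components had no call, and their changes ranged from -1.48 for C8b to 0.10 for C9. C8b, a chain of component 8 of the pore, measured 8.96, 11.38, 10.91, 10.61 and 12.76 on HCC arrays 1 to 5, against 11.64, 12.76, 12.22 and 12.99 on control arrays 1 to 4. HCC arrays 1 to 4 lay below every control, while HCC array 5 was level with control array 2 (log2 change -1.48, SE 0.65, adjusted p = 0.243). C8g, the lipocalin-like chain of the same component, measured 10.57, 11.61, 10.93, 10.99 and 11.65 in HCC, against 11.65, 11.78, 11.71 and 11.76 in control liver. HCC array 5 lay only just below control array 1 (log2 change -0.57, SE 0.21, adjusted p = 0.184).

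C8a, the neighbouring gene of C8b and source of a further chain, had a wide spread in both groups. It measured 8.83, 11.55, 10.56, 10.77 and 11.98 in HCC and 10.87, 11.89, 10.38 and 12.10 in control liver (log2 change -0.57, adjusted p = 0.631). Without HCC array 1 the change of C8a was -0.09, and over the other omissions it ranged from -0.88 to -0.31. C8b minus C8a was 0.19 ± 0.40 in HCC and 1.09 ± 0.50 in control liver, a change of -0.91 (95% interval -1.61 to -0.20, exact permutation p = 0.0238, adjusted p = 0.0357 over 9 pairs) with overlapping groups. For C8g minus C8a the change was -0.00, with a wide 95% interval of -1.25 to 1.24. Component 6 (C6) varied most among the terminal genes, with 5.98 to 10.50 in HCC and 7.80 to 10.71 in control liver (log2 change -0.53, 95% interval -2.65 to 1.6). Its HCC range held every control value except the highest, and its change was 0.10 without HCC array 1 and 0.04 without control array 4. Hc, the gene of component 5, changed by -0.18 and C9, the pore-forming unit, by 0.10 (adjusted p = 0.597 and 0.880).

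**Figure D3:**
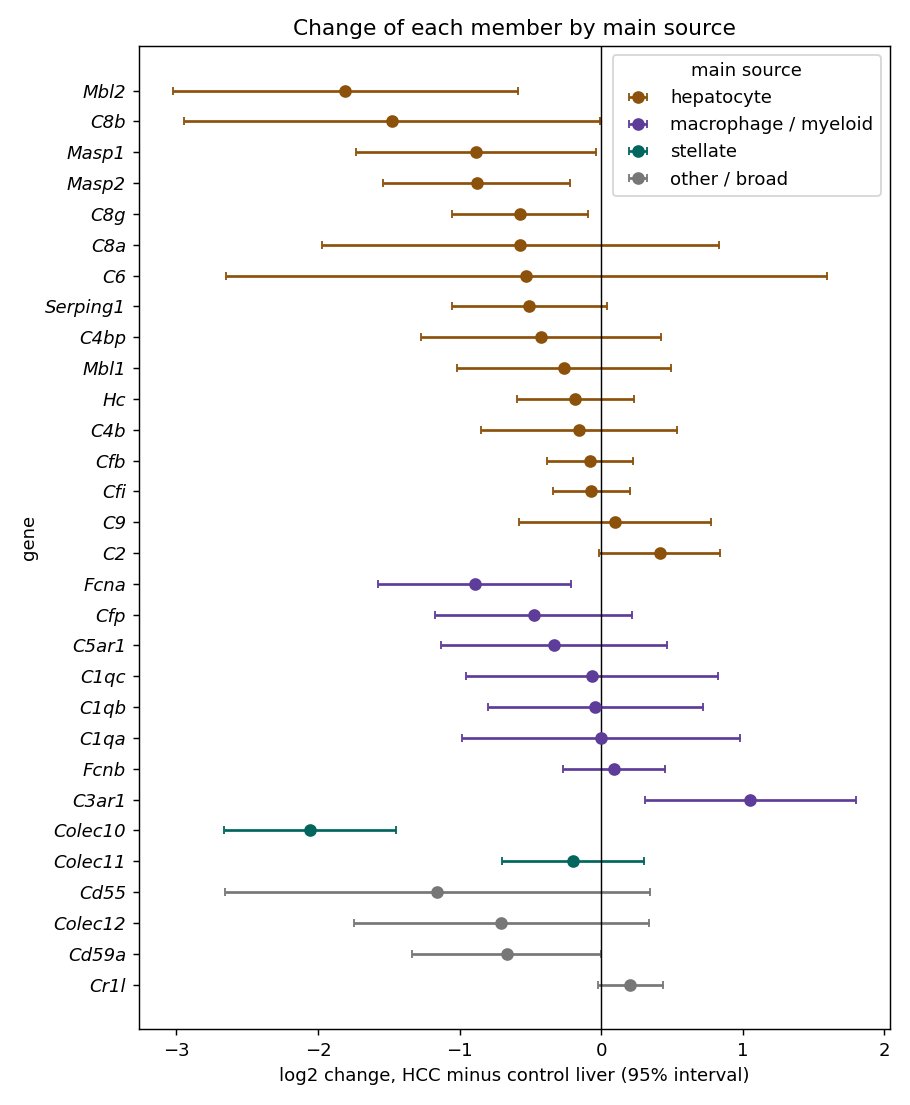
Log2 change (HCC minus control liver) of each of the 30 genes with its 95% interval from limma, coloured by main source. The interval of Colec10, -2.66 to -1.45, is the one that belongs to a called change, and the C1q chains lie between -0.07 and -0.00.

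Regulators of the cascade had no call. Of 7 measured, 6 had a negative change. Cd55, the membrane protein that breaks up convertases, measured 4.93, 8.77, 6.95, 6.63 and 8.14 on HCC arrays 1 to 5, against 8.22, 8.60, 8.21 and 7.93 on control arrays 1 to 4. HCC arrays 1, 3 and 4 lay below all controls, and HCC array 2 lay above them (log2 change -1.16, SE 0.67, adjusted p = 0.353). Without HCC array 1 the change of Cd55 was -0.62. Cd59a, which blocks the pore on host cells, measured 8.60, 8.95, 8.63, 7.99 and 8.91 in HCC and 8.40, 9.81, 9.61 and 9.32 in control liver (log2 change -0.67, adjusted p = 0.246), and its probe set may share signal with the copy Cd59b. Apart from control array 1, the controls lay above every HCC array. Cd55 minus Cd59a changed by -0.49, with a wide 95% interval of -2.19 to 1.21 (exact permutation p = 0.643).

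The soluble regulators did not pass either. Cfi, the protease that inactivates component 3b, changed by -0.07 (95% interval -0.34 to 0.21), C4bp, its cofactor, by -0.42 (adjusted p = 0.549), and Serping1, the inhibitor of C1r, C1s and the MASPs, by -0.51 (95% interval -1.06 to 0.04, adjusted p = 0.274). Without HCC array 1 the change was -0.16 for C4bp and -0.32 for Serping1. Properdin (Cfp), the myeloid protein that stabilises the alternative convertase, measured 7.25, 8.75, 7.54, 7.16 and 7.36 in HCC and 7.84, 8.43, 8.08 and 8.0 in control liver (log2 change -0.48, adjusted p = 0.406). HCC array 2 was the highest of all arrays and the other HCC arrays lay below every control, with a change of -0.76 without array 2. Cr1l, the broadly expressed membrane regulator Crry of the mouse, changed by 0.21 (95% interval -0.02 to 0.44, adjusted p = 0.285).

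The receptor C3ar1, which binds the anaphylatoxin released from component 3, had the largest positive change of all members without passing. It measured 9.93, 10.64, 9.47, 9.98 and 8.81 on HCC arrays 1 to 5, against 8.54, 9.17, 8.77 and 8.37 on control arrays 1 to 4. HCC arrays 1 to 4 lay above every control and HCC array 5 was inside the control range. Means were 9.76 ± 0.68 in HCC and 8.71 ± 0.35 in control liver (log2 change 1.05, SE 0.33, 95% interval 0.31 to 1.80, adjusted p = 0.137). Without HCC array 5 the change was 1.29 and passed (adjusted p = 0.0302), in a fit that called 3.16% of all genes higher. The differences within the Xist levels were 1.45 (high) and 1.05 (low).

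C5ar1, the receptor for the anaphylatoxin of component 5, measured 6.43, 7.74, 6.11, 6.92 and 6.46 in HCC and 6.51, 7.84, 6.99 and 6.92 in control liver (log2 change -0.33, adjusted p = 0.622). The groups overlapped, and array 2 was the highest in each. C3ar1 minus C5ar1 was 3.03 ± 0.45 in HCC and 1.65 ± 0.32 in control liver, with no overlap (change 1.39, 95% interval 0.75 to 2.02, exact permutation p = 0.0159, adjusted p = 0.0357 over 9 pairs). Of 9 macrophage markers measured, 2 had a positive change and 7 a negative one. The scavenger receptor Cd163 fell (5.95 ± 0.38 in HCC and 7.34 ± 0.24 in control liver, log2 change -1.39, limma adjusted p = 0.0250), where 0.16% of all genes were called lower. The summed intensity of the macrophage markers ranged from 2353 to 8951 on HCC arrays and from 2379 to 5525 on control arrays. Lyz2, which had a positive change, had the highest mean of these markers in both groups and weighs heavily in the sum.

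Neutrophil markers had a positive change in 8 of 8, with none called and none past an unadjusted p below 0.05 in limma. Their summed intensity ranged from 576 to 12592 on HCC arrays and from 574 to 1547 on control arrays, and it was high on HCC arrays 2 and 4. S100a9 had the highest mean of these markers in both groups and weighs heavily in the sum. The part of neutrophils or macrophages in the values of C3ar1 was not tested.

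**Figure D4:**
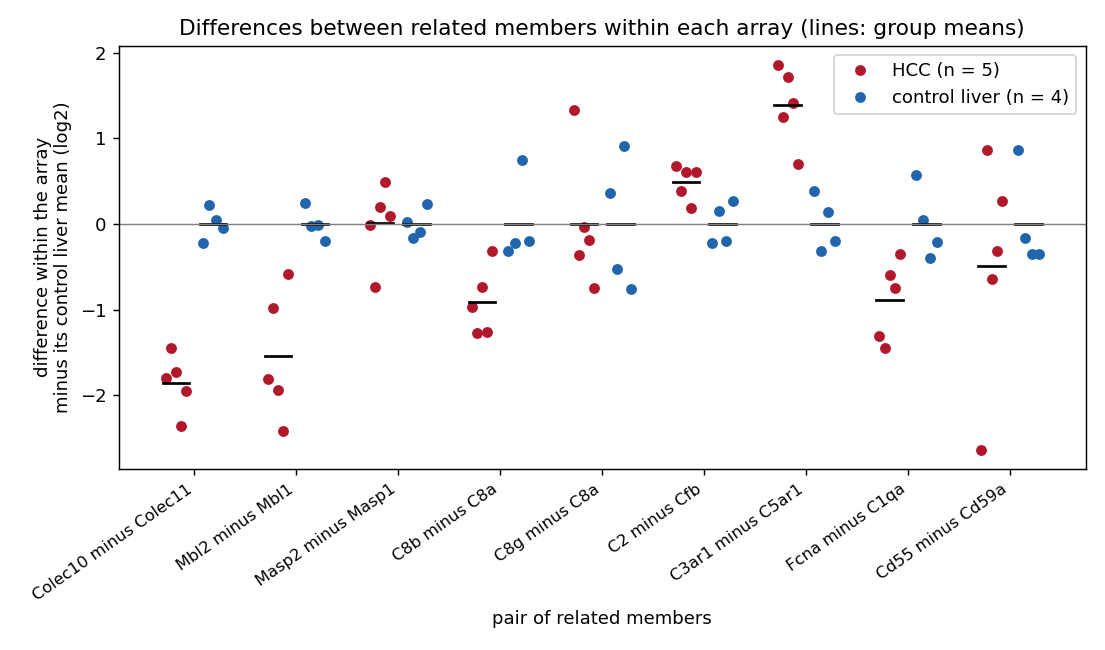
For each of 9 pairs of related members, the log2 difference within each array minus the mean of that difference in control liver (points; HCC red and left, control blue and right; lines, group means). Colec10 minus Colec11 and Mbl2 minus Mbl1 lie below all controls in HCC and C3ar1 minus C5ar1 lies above them, while Masp2 minus Masp1 is centred at 0 in both groups.

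By main source, the 16 hepatocyte genes had 14 negative changes, no call and a median of -0.47. The 8 macrophage or myeloid genes had 6 negative changes, no call and a median of -0.05. Of the 2 stellate cell genes Colec10 fell and Colec11 did not pass, and the 4 other genes had a median of -0.69 and no call. The difference between the medians of the hepatocyte and macrophage sets has no test here. Without HCC array 1 the hepatocyte median was -0.13, and without control array 4 it was -0.27. Without HCC array 2 the macrophage median was -0.39, without control array 1 it was -0.27, and adding Xist to the model as a covariate gave 0.14.

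The tumours varied more among themselves than the controls did. The SD over HCC arrays was larger than that over control arrays for 29 of 30 members, against 67.9% of all genes. The median SD was 0.64 in HCC and 0.23 in control liver. Marker lists shared this: the HCC SD was larger for 90.9% of hepatocyte, 100% of macrophage, 90.9% of stellate and 100% of sinusoidal endothelial markers. For acute-phase genes it was larger in 61.5%. HCC array 1 had the lowest HCC value for 18 of 30 members (60%, compared with 19.6% of all genes), including 13 of 16 hepatocyte genes. The same share was 45.5% of hepatocyte, 55.6% of macrophage, 72.7% of stellate and 66.7% of sinusoidal endothelial markers. The highest HCC value was on array 2 or 5 for all 30 members, compared with 37.7% of all genes. It was on those arrays for 90.9% of hepatocyte, 100% of macrophage, 72.7% of stellate and 88.9% of sinusoidal endothelial markers. The hepatocyte genes averaged -1.43, 0.13, -0.62, -0.73 and 0.19 relative to the control mean on HCC arrays 1 to 5, and -0.21, 0.21, -0.21 and 0.21 on control arrays 1 to 4. HCC arrays 2 and 5 therefore lay within the control range, and arrays 1, 3 and 4 below it.

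The same averages for the macrophage or myeloid genes were -0.25, 0.96, -0.40, -0.32 and -0.42 in HCC and -0.34, 0.42, 0.08 and -0.16 in control liver. HCC array 2 stood out on the high side. Macrophage markers were high on the same array, at 0.79 against -0.99 to -0.56 on the other HCC arrays. Hepatocyte markers averaged -0.50 on HCC array 1 and -0.32 to 0.02 on the others. None of 11 was called (9 negative, with 2 lower at an unadjusted p below 0.05 in limma). Ahsg and Asgr1 lay wholly below the controls (18.2% of these markers, against 3.86% of all genes). Asgr1 had a mean of 10.65 in HCC and 11.59 in control liver (log2 change -0.94). Sinusoidal endothelial and stellate markers were also lowest on HCC array 1, at -1.36 and -0.95. Biliary markers averaged higher on every HCC array than on any control array, at 1.42, 1.49, 0.56, 0.93 and 1.08 on HCC arrays 1 to 5 and -0.08 to 0.06 on control arrays. All 5 measured had a positive change, as did 8480 of all 19938 genes. Of these markers 3 lay wholly above the controls, against 5.63% of all genes. Sox9, a transcription factor of bile duct cells, rose (9.50 ± 0.65 in HCC and 7.35 ± 0.14 in control liver, log2 change 2.15, limma adjusted p = 0.0228), where 0.858% of all genes were called higher. The part of the cell mix of each tumour in the members' values was not tested.

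**Figure D5:**
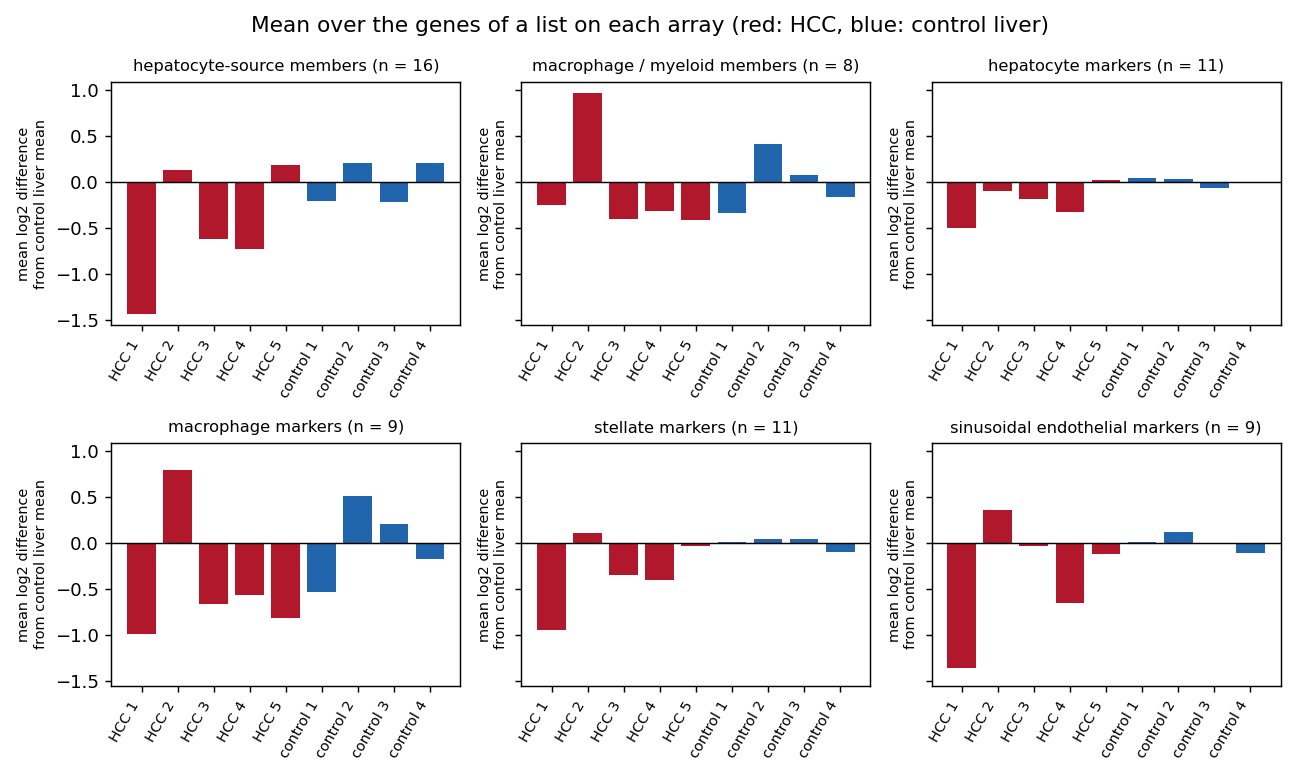
Mean over the genes of a list of the log2 difference from the control liver mean, on each HCC array (red, left) and control array (blue, right), for 2 member sets and 4 marker lists. Hepatocyte-source members are at -1.43 on HCC array 1, and macrophage or myeloid members are at 0.96 on HCC array 2.

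Of 32 other genes of the pathway, 28 were measured and none passed in limma, against 0.858% of all genes called higher and 0.16% called lower. At an unadjusted p below 0.05, 4 were higher (14.3%) and 5 were lower (17.9%), against 10.5% and 9.85% of all genes. The smallest p belonged to Cd93, a surface lectin of endothelial and myeloid cells (8.54 ± 0.41 in HCC and 7.74 ± 0.18 in control liver, adjusted p = 0.0897), and to Itgax, a chain of complement receptor 4 (6.44 ± 0.23 and 5.87 ± 0.23 in the same order, adjusted p = 0.0917). Cd59b measured 6.35 ± 0.65 in HCC and 7.34 ± 0.12 in control liver (limma adjusted p = 0.124). Clusterin (Clu), a fluid-phase inhibitor of the pore, measured 12.61 ± 0.37 and 12.04 ± 0.14 in the same order (limma adjusted p = 0.142). Of the 28 genes, 4 were higher on every HCC array than on any control array, with Cd93, Itgax and Clu among them. This is 14.3%, against 5.63% of all genes. In the other direction, 2 were lower on every HCC array (7.14%, against 3.86% of all genes). Vsig4, the complement receptor of Kupffer cells, was chosen for its spread after its values were seen. It measured 5.14, 11.90, 9.51, 9.28 and 10.01 in HCC and 10.25, 11.42, 11.20 and 10.83 in control liver (adjusted p = 0.397), lowest on HCC array 1 and highest on HCC array 2. With array weights, which called 2.52% of all genes higher and 1.23% lower, Cd93 and Itgax passed.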

How the data were processed

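Total RNA of 5 HCC and 4 control livers was hybridised to Affymetrix Mouse Gene 1.0 ST arrays. The deposited table holds 1 intensity per probe set and array, not in log form, from 3.91 to 21468. RMA is named in the submitters' processing notes, and GenePattern and R in the series' design text, with versions not given in the sources used here. They were transformed to log2 with no floor. Of 35512 probe sets, 21789 had 1 gene symbol in the platform annotation, 1621 several and 12102 none; the probe set with the highest mean was kept per gene. No detection call was used, so a low intensity does not show absence, and the number of arrays limits the precision. Levels of different probe sets are not comparable; pairs were compared only by how their difference changed.

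Groups were compared with limma 3.58.1 in R 4.3.3 (group as the only term, two-sided), after a check on simulated data. Pairs were tested by exact permutation, two-sided, with Python 3.11.15. A planned pair, C4b minus C3, was not run. The members, lists, pairs and alternatives were chosen with earlier results of these data known. Values of every array were given for called or separated members, the 3 largest changes of each source set and, beyond that rule, the partners in the pairs; of other pathway genes, the 4 with the smallest p were named. Deviations of same-numbered arrays correlated for number 2 (r = 0.324) and not for numbers 1, 3 and 4 (r below 0), so the numbers were not used as pairs. Alternatives covered filtering, normalisation, variance moderation, array weights, probe set averaging, a replicate block, Xist as a covariate and omission of each array.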

Additional observations from a re-analysis of the deposited data

Results flagged for a closer look

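Among 60 groups of values (30 members in each group of arrays), 5 held a sample far from the others by Dixon's test, where chance gives about 1 in 20. In HCC, array 1 was far below the others for Mbl1 (9.53), and array 2 was far above them for C1qa (10.46), C1qc (10.62) and Cfp (8.75). In control liver, array 2 was far above the others for Cfi (12.90). Macrophage markers were also highest on HCC array 2, and their part in the C1qa, C1qc and Cfp values was not tested.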

How the results depend on the processing

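No direction of a called member reversed under the alternatives run. With the replicate number as a block, 1 member was higher (C3ar1) and 4 were lower (Colec10, C8b, Mbl2 and Fcna), among 259 higher and 220 lower genes; HCC array 5 has no partner and adds nothing to that fit. Deviations of same-numbered arrays correlated for number 2 (r = 0.324, the highest of the 16 pairings of an HCC with a control array) and not for numbers 1, 3 and 4 (r = -0.0040, -0.0293 and -0.0830), so the labels' numbers were not taken as pairs. Genes called over the whole array were 285 higher and 93 lower with the filter on low means, 503 and 246 with array weights, and 49 lower after repeated quantile normalisation. Other pathway genes called higher were 2 with array weights and 1 with the replicate block, and 1 was lower with the block. Leaving out 1 array at a time gave 0 to 1 members higher and 0 to 2 lower, 10 to 631 genes higher and 0 to 556 lower over the array, and 0 to 3 other pathway genes higher and 0 to 2 lower. The upper ends were all without HCC array 5, and the cause was not tested.

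The pair differences kept their direction under those omissions for Colec10 minus Colec11 (-1.96 to -1.73), Mbl2 minus Mbl1 (-1.78 to -1.33), C3ar1 minus C5ar1 (1.27 to 1.56), C8b minus C8a (-1.06 to -0.66), Fcna minus C1qa (-1.02 to -0.70) and C2 minus Cfb (0.42 to 0.58). None of these 6 passed with 8 arrays. Fewer splits exist there and the smallest possible p is larger, but the part of this in the lost calls was not tested. C2 minus Cfb also missed after repeated quantile normalisation (0.31).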

Other observations

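Acute-phase proteins, plasma proteins that hepatocytes make in response to inflammation, had no call among 13 measured, and 10 had a negative change (median -0.22; 1 was higher and none lower at an unadjusted p below 0.05 in limma). The iron-binding lipocalin Lcn2 measured 10.68, 12.79, 10.88, 10.97 and 8.42 on HCC arrays 1 to 5 and 7.92, 11.06, 8.54 and 7.35 on control arrays 1 to 4 (log2 change 2.03, adjusted p = 0.258). Control array 2 was high among the controls for Lcn2, and HCC array 5 was low among the tumours. Lcn2 was chosen after its values were seen.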
